A study of Mus musculus with 13 samples.

Results

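Metallothioneins and glucocorticoid-induced genes are transcripts that tissues commonly raise under stress, and 10 of them were followed in mouse bone marrow after blood loss: Mt1, Mt2, Fkbp5, Tsc22d3, Zbtb16, Sgk1, Dusp1, Ddit4, Klf9 and Nr3c1. They were chosen by name, and each was measured by a single probe set annotated only to that gene, so all 10 were found among the 19938 genes of the array. Femoral marrow came from 13 male C57BL/6 mice aged 6 weeks, written of here as 1 mouse per array, although the labels do not say whether arrays of a group are separate animals. Phlebotomy removed 500 µL of blood by retro-orbital puncture. Femurs were taken 4 h later on 1 array, 9 h later on 3 arrays, and on 2 arrays each at 12 h, 15 h and 48 h, while 3 control arrays came from baseline mice. No sham puncture and no hour of day are given in the sources used here, so the time since blood loss cannot be told apart from the hour of collection or from handling.

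Glucocorticoids enter cells and bind the receptor encoded by Nr3c1, which then moves to the nucleus and binds response elements beside its target genes. Fkbp5, Tsc22d3, Zbtb16, Sgk1, Dusp1, Ddit4 and Klf9 are well-known targets that rise in many tissues, and several of them also follow the daily rhythm of corticosterone. Mt1 and Mt2 encode small cysteine-rich proteins that bind zinc and copper. They are induced by metals through the factor MTF1 as well as by glucocorticoids and inflammatory cytokines. In bulk marrow, fewer cells of a type and less RNA per cell cannot be told apart.

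The promoters of Mt1 and Mt2 are shown because these neighbouring genes encode the metallothioneins, and Mt1 carried the only call. Both lie on the plus strand of chromosome 8 (GRCm38.p6, sequences from RefSeq), Mt2 at chr8:94172368-94172667 and Mt1 at chr8:94178839-94179138, each window holding 250 bases before the annotated start and 50 after it. Capitals of 7 letters mark the core of the metal response element, searched as TGCACNC and TGCGCNC on both strands, and capitals of 13 letters mark a glucocorticoid response element, searched as GNACA followed after any 3 bases by TGTNC, which reads the same on both strands.
Mt1: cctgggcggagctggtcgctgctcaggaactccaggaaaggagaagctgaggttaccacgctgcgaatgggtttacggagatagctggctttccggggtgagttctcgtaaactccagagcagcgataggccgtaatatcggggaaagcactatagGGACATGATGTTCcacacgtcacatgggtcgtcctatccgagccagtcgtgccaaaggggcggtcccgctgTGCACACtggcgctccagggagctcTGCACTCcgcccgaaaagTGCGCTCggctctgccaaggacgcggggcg
Mt2: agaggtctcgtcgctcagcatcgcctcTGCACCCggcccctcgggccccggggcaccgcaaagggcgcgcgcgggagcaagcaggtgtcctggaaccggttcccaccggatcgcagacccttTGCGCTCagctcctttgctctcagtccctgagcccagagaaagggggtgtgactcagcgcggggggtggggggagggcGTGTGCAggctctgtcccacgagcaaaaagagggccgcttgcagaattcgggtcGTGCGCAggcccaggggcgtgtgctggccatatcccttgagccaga

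The Mt1 window held 3 metal response cores and the Mt2 window 4, and no marked match overlapped another. At least 1 core was present in 25.7% of 32851 promoter windows of the same length, at least 3 in 1.97% and at least 4 in 0.517%. The glucocorticoid pattern was found in Mt1, 94 to 82 bases before the start, and in 0.475% of all windows. Of 15 windows listed for 8 of the 10 genes it was present in 2, the other being 1 of the 6 start sites of Sgk1. These matches describe letters in the windows, and the start used in marrow was not measured.

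Title numbers fell into 2 runs. The smaller run had 3 arrays, namely control replicate 3 with replicates 1 and 2 of 9 h, and the larger run had the other 10. Median log2 levels over all probe sets were 6.98 to 7.03 in the larger run and 7.77 to 7.80 in the smaller, so levels are compared only within a run and every fit carried a term for it. Repeated identical values occurred among the smaller run's arrays for 75.6% of genes and for 4 of the 10 stress genes. The marrow markers Mpo (myeloid granules), Slc4a1 (red cell membrane) and Cd79a (B cells) lay at or above the 97th percentile of genes on all 13 arrays. Marker lists of marrow cells still shifted. Against the mean of the larger run's controls, erythroid markers had a median of −0.21 on control replicate 1 and 0.21 on replicate 2. Fat, stromal and endothelial markers had 0.25 and −0.25. At 48 h all 4 erythroid markers, but 0 of 8 neutrophil, 0 of 6 B and 0 of 6 T and NK markers, were above 0, none past the threshold. The part of these shifts in the stress genes was not tested. Markers of other tissues differed between arrays. Of 10 small intestine markers 9 rose at 4 h, with Reg3g at a log2 level of 12.3 against 7.61 and 7.54 in the controls of that run. The controls in turn stood above all later arrays for these transcripts: Fabp2 was at 7.12 to 7.62 on the 3 controls and at 4.90 to 5.72 on the 9 arrays of 9 h to 48 h, and Reg3g was at 7.54 to 7.71 against 5.17 to 6.11. Against control, 3 of these 10 markers fell at 9 h, 3 at 12 h, 4 at 15 h and 4 at 48 h, with all 10 below 0 each time. Of 10 liver markers 6 rose at 48 h against control, with Alb at 11.7 and 11.4 on the 48 h arrays against 6.87 and 7.23 in those controls.

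Mt1 was the only one of the 10 genes to pass the threshold in any comparison, and it did so at 15 h. Its log2 level was 9.93 and 10.25 in the controls of the larger run, 10.49 at 4 h, 10.54 at 9 h, 10.48 and 10.50 at 12 h, 10.71 and 10.80 at 15 h, and 10.44 and 10.55 at 48 h. In the smaller run it was 10.89 in the control and 11.20 and 11.19 at 9 h. Every phlebotomised array therefore lay above every control of its run, with the 15 h arrays the highest of the larger run and the 4 h, 9 h, 12 h and 48 h arrays within 0.11 of each other. That separation from control was seen after the values were known, and 1.87% of all genes showed it upward and 0.446% downward. Tied values counted as overlap, and 75.6% of genes had a repeated value in the smaller run, which can lower these shares. Mt1 had 3 distinct values there.

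From 1 limma fit to all genes with Benjamini-Hochberg adjustment, Mt1 rose at 15 h by log2 0.64 ± 0.10 (standard error), or 1.55-fold, with an adjusted p = 0.0346. At 15 h 0.256% of all genes passed, 1 of them among the 10. The call rested on few arrays. With 1 array omitted at a time, it held in 6 of 13 fits, where the adjusted p ran from 0.0202 to 0.284 and the difference from 0.50 to 0.73. It was lost without control replicate 2 (adjusted p = 0.0610), either 15 h array (0.117 and 0.284), either 12 h array (0.0723) or 9 h replicates 1 or 2 (0.0750 and 0.0742). In the larger run alone the difference was 0.66 ± 0.12 (adjusted p = 0.101). Differences at the other times were 0.37 ± 0.12 at 4 h, 0.37 ± 0.09 at 9 h, 0.37 ± 0.10 at 12 h and 0.38 ± 0.10 at 48 h, none past the threshold (adjusted p from 0.146 to 0.314). Without control replicate 1 they were 0.24 at 4 h, 0.29 at 9 h, 0.24 at 12 h and 0.25 at 48 h. These 5 comparisons share their controls.

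Mt2, a relative and neighbour of Mt1, had a wider spread between arrays. It stood at 10.94 and 12.22 in the controls of the larger run, 12.04 at 4 h, 12.41 at 9 h, 12.17 and 12.28 at 12 h, 12.42 and 12.62 at 15 h, and 12.16 and 12.37 at 48 h. In the smaller run the control was at 12.21 and the 9 h arrays at 12.89 and 12.43. The phlebotomised arrays thus lay close to control replicate 2, and control replicate 1 stood alone below them. The gap of 1.28 between those controls exceeded that of 99.9% of genes. At 15 h the difference was 0.88 ± 0.30 (adjusted p = 0.289), and it was 0.37 without control replicate 1 and 1.29 without control replicate 2. At 4 h a difference of 0.40 ± 0.38 became −0.10 without control replicate 1.

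**Figure D1:**
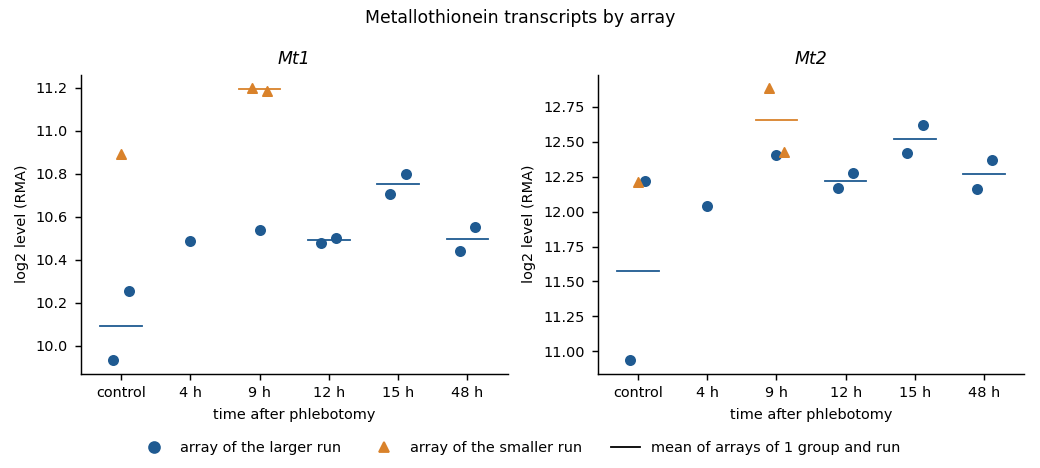
Log2 level of Mt1 and Mt2 on each of the 13 arrays, by time after phlebotomy. Circles are arrays of the larger run, triangles arrays of the smaller run, and lines the means where a group has more than 1 array in a run; Mt1 is lowest in the controls of each run, and Mt2 has 1 control at 10.94 below all others.

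Both metallothioneins are also abundant in liver and respond there. The Alb level was 9.68 on 9 h replicate 1, where Mt2 was at 12.89, against 7.31 on 9 h replicate 2, where Mt2 was at 12.43. Mt1 was at 11.20 on 9 h replicate 1 and at 11.19 on 9 h replicate 2. On the 15 h arrays, where Mt1 was highest, Alb stood at 6.73 and 6.26, below both controls of the run. At 15 h 0 of the 10 liver markers rose or fell. The Mt1 level on the 48 h arrays, where Alb was highest, was 10.44 and 10.55. The part of liver RNA in the metallothionein values was not tested. The fall of small intestine markers from the controls ran beside the Mt1 differences at 9 h, 12 h, 15 h and 48 h, and its part in them was not tested. Without the arrays highest in intestine or liver markers (4 h, 9 h replicate 1 and both 48 h arrays, a choice made after the data were seen), and with all 3 controls kept although they carry intestine markers, Mt1 differed at 15 h by 0.64 ± 0.11 (adjusted p = 0.113).

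Of the glucocorticoid-induced regulators, Fkbp5, a chaperone partner that damps the receptor, was highest at 4 h. Its log2 level was 7.95 and 7.82 in controls, 8.55 at 4 h, 8.16 at 9 h, 8.09 and 7.88 at 12 h, 7.92 and 8.26 at 15 h, and 7.90 and 7.71 at 48 h. The 4 h array was above all others of the larger run, whereas the 12 h, 15 h and 48 h arrays overlapped the controls. The 4 h difference was 0.61 ± 0.16, or 1.53-fold, with an unadjusted p = 0.00261 and an adjusted p = 0.0886, which misses the threshold. In the smaller run the control and 9 h replicate 2 were both at 9.00 and 9 h replicate 1 at 8.96.

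Zbtb16 (PLZF), a transcription factor that glucocorticoids induce strongly in several cell types, was at 7.80 and 7.66 in controls, 8.21 at 4 h and 8.22 at 9 h. It was 7.83 and 7.85 at 12 h, 7.65 and 8.01 at 15 h, and 7.84 and 7.86 at 48 h. The high arrays were thus those of 4 h and of the larger run's single 9 h mouse. In the smaller run the control and 9 h replicate 1 were both at 8.66 and 9 h replicate 2 at 8.53. The 9 h differences in the larger and smaller run were 0.49 and −0.07, a gap of 0.56 ± 0.20 (unadjusted p = 0.0208, adjusted p = 0.776 over all genes). No gene passed in that comparison of runs with limma, and 6.09% of genes had an unadjusted p under 0.05. The 4 h difference was 0.38 ± 0.18 (adjusted p = 0.341).

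Skeletal muscle transcripts also differed between arrays. The 8 muscle markers had a median of 1.87 above the controls on the 4 h array. It was 0.73 on the 9 h array of the larger run and 1.01 on 48 h replicate 1. On replicates 1 and 2 it was −0.07 and −0.66 at 12 h and −0.50 and 0.31 at 15 h. It was −0.88 on 48 h replicate 2. In the smaller run it was −1.18 and −0.47 on 9 h replicates 1 and 2. There Fkbp5 differed from the control by −0.04 and 0, and Zbtb16 by 0 and −0.13. Acta1, the actin of muscle fibres, was at 11.4 on the 4 h array and 10.6 on 48 h replicate 1, against 9.38 and 9.31 in the controls. On 48 h replicate 1 Fkbp5 was at 7.90 and Zbtb16 at 7.84, close to the controls. Over the 10 arrays of the larger run Acta1 correlated with Fkbp5 at r = 0.76 and with Zbtb16 at r = 0.64, values that share the 4 h array; the part of muscle RNA was not tested.

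Tsc22d3 (GILZ), which restrains inflammatory signalling, spread widely within the 12 h and 15 h groups. It was at 8.66 and 8.41 in controls, 8.93 at 4 h, 9.18 at 9 h, 9.00 and 8.57 at 12 h, 8.56 and 9.16 at 15 h, and 8.35 and 8.62 at 48 h. In the smaller run it was 9.59 in the control and 9.46 and 10.03 at 9 h. The largest difference was 0.40 ± 0.21 at 9 h (adjusted p = 0.810), made up of 0.65 in the larger run and 0.16 in the smaller. Klf9, a transcription factor that repeats part of the glucocorticoid response and cycles with the day, was at 8.29 and 7.89 in controls, 8.40 at 4 h, 8.25 at 9 h, 8.40 and 8.22 at 12 h, 8.38 and 8.69 at 15 h, and 8.05 and 8.07 at 48 h. For the smaller run the control and 9 h replicate 1 were both at 9.11 and 9 h replicate 2 at 9.33. Both 15 h arrays were above both controls of their run, by 0.43 ± 0.14 in the fit (unadjusted p = 0.00901, adjusted p = 0.256). That difference was 0.28 without 15 h replicate 2 and 0.59 without 15 h replicate 1. It was 0.29 without control replicate 2 and 0.57 without control replicate 1. The 48 h arrays lay below all 12 h and 15 h arrays, by 0.36 ± 0.12 (unadjusted p = 0.0138, adjusted p = 0.157).

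Ddit4 (REDD1), an inhibitor of mTORC1 that hypoxia and glucocorticoids both induce, was at 8.08 and 7.85 in controls, 7.99 at 4 h, 8.45 at 9 h, 8.49 and 7.86 at 12 h, 7.85 and 8.32 at 15 h, and 7.52 and 7.92 at 48 h. In the smaller run it was 8.90 in the control and 8.77 and 9.31 at 9 h. The arrays of 12 h and of 15 h each spread widely. The difference of 48 h from the mean of 12 h and 15 h was −0.41 ± 0.21 (adjusted p = 0.329). It was −0.21 without 48 h replicate 1 and −0.61 without 48 h replicate 2. Dusp1, the phosphatase that switches off p38 and JNK, was at 9.83 and 10.34 in controls, 9.77 at 4 h, 10.45 at 9 h, 9.95 and 10.09 at 12 h, 9.84 and 10.28 at 15 h, and 10.33 and 10.44 at 48 h. The smaller run held 10.74 in the control and 10.63 and 10.85 at 9 h. The 4 h array lay below both controls of its run, with a difference of −0.38 ± 0.22 in the fit, not past the threshold. The 48 h arrays lay above all 12 h and 15 h arrays, by 0.35 ± 0.16 (adjusted p = 0.271). Sgk1, a kinase that controls ion channels, ranged from 7.50 to 7.98 over the larger run, with both extremes at 15 h, and from 8.82 to 8.92 in the smaller. Its differences from control lay between −0.10 and 0.01.

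Nr3c1, the receptor itself, was the steadiest of the 10. Its level was 9.46 and 9.28 in controls, 9.47 at 4 h, 9.31 at 9 h, 9.39 and 9.49 at 12 h, 9.32 and 9.42 at 15 h, and 9.44 and 9.39 at 48 h. All of these values lay within 0.21, a range at the 4.5th percentile of genes. The 3 arrays of the smaller run lay within 0.02 of each other. Differences from control ran from −0.03 to 0.11 with standard errors of 0.07 to 0.10.

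**Figure D2:**
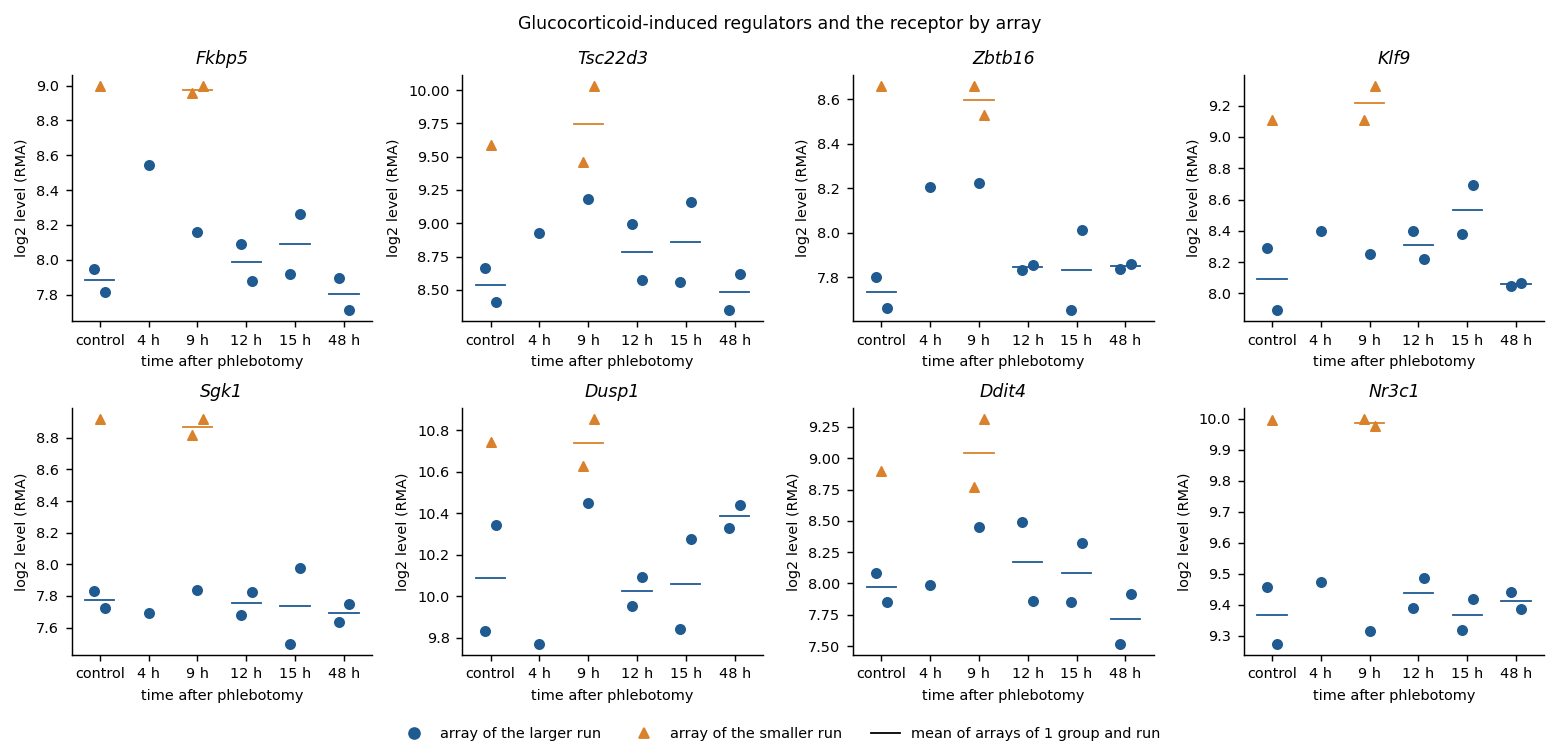
Log2 level of the 7 glucocorticoid-induced regulators and of Nr3c1 on each array, by time after phlebotomy, with symbols for the larger run (circles), the smaller run (triangles) and means (lines). Arrays of the 12 h and 15 h groups spread widely for Tsc22d3 and Ddit4, while Nr3c1 stays between 9.28 and 9.49 in the larger run.

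Counted together at an adjusted p under 0.05, 0 of the 10 genes passed at 4 h, where 1.99% of all genes did, 0 at 9 h (0.0953%), 0 at 12 h (0.105%), 0 at 48 h (0.376%) and 0 between 48 h and the mean of 12 h and 15 h (0.828%). With limma's unadjusted p under 0.05 the counts were 2 at 4 h, 2 at 9 h, 1 at 12 h, 3 at 15 h, 1 at 48 h and 1 between 48 h and the middle times, where 15.2%, 6.12%, 13.7%, 12.5%, 14% and 18.8% of all genes lay. The median difference of the 10 genes was 0.30 at 4 h, 0.20 at 9 h, 0.11 at 12 h, 0.11 at 15 h and −0.01 at 48 h, and that of all genes was within 0.02 of 0 in each comparison. Between 48 h and the middle times the median was −0.11, with 7 of the 10 below 0.

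Separation of arrays gave the same picture. At 4 h the single array lay above both controls of its run for 6 of the 10 genes and below them for 2, against 35.7% and 35.5% of all genes. At 9 h Mt1 and Mt2 lay above the controls in both runs, as 6.29% of genes did, and none of the 10 lay below them (5.22%). Tied values counted as overlap, and unlike Mt1 and Mt2, 75.6% of genes had a repeated value in the smaller run. The shares of all genes at 9 h can be lower for that reason. Of the 10 genes 2 lay above at 12 h (20.1% of genes), 3 at 15 h (20.3%) and 2 at 48 h (24.2%), and 0 lay below at those times (20%, 19.2% and 16% of genes). Between 48 h and the middle times Dusp1 was separated upward (15.4% of genes) and Klf9 downward (12%).

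**Figure D3:**
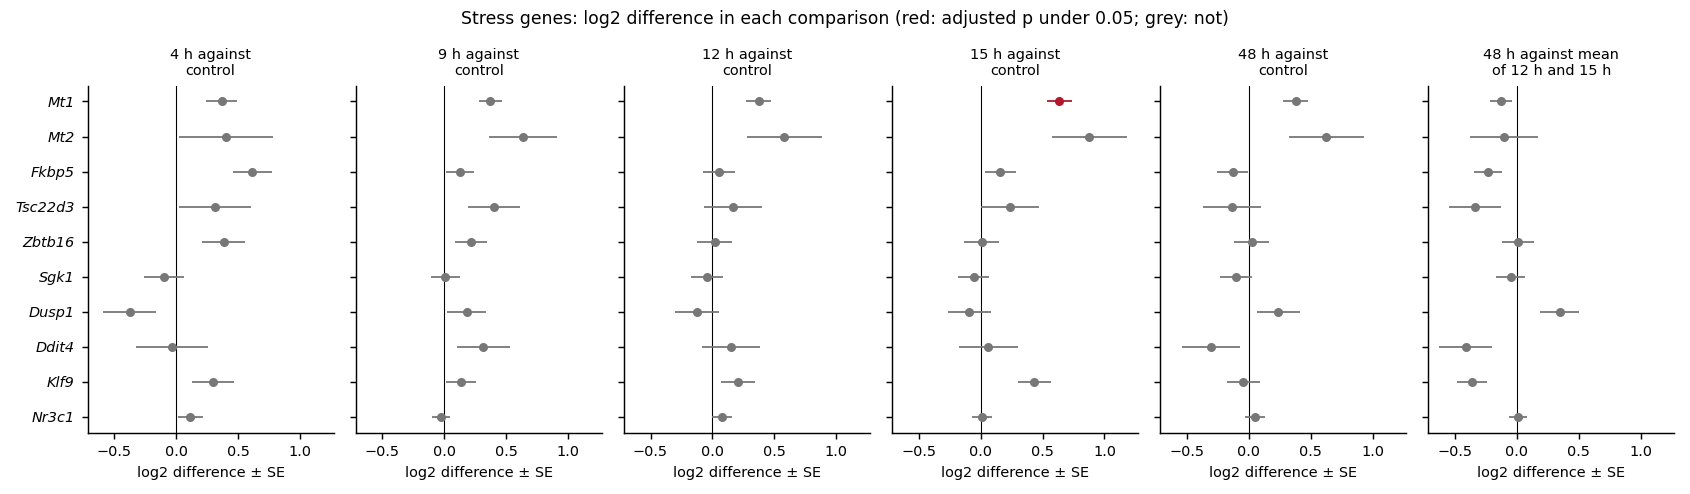
Log2 difference with its standard error for each of the 10 genes in the 6 comparisons, from the limma fit to all genes. Mt1 at 15 h (0.64) is the only point in red, the colour of an adjusted p under 0.05.

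Gaps between arrays of the same group were wide for several regulators. At 15 h all 10 were higher on replicate 2 than on replicate 1, as 53.7% of all genes were, and 7 of the 10 by more than 0.3, which held for 3.89% of all genes. The gaps were 0.60 for Tsc22d3, 0.48 for Sgk1, 0.47 for Ddit4, 0.43 for Dusp1, 0.36 for Zbtb16, 0.35 for Fkbp5 and 0.32 for Klf9, and only 0.09 for Mt1 and 0.10 for Nr3c1. Per1, a clock gene that glucocorticoids induce, showed a gap of 0.35 in the same direction. These gaps were singled out after the values were seen. The 8 muscle markers also differed on these arrays, with medians of −0.50 and 0.31 against the controls, and their part in the gaps was not tested.

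At 12 h the order was mixed. Replicate 1 was higher than replicate 2 by 0.63 for Ddit4, 0.42 for Tsc22d3, 0.24 for Per1 and 0.21 for Fkbp5, while Sgk1 and Dusp1 were lower on it by 0.15 and 0.14. Ddit4 and Tsc22d3 exceeded the gap of 99.5% and 97.4% of genes there. The 2 arrays of 9 h in the smaller run also differed for this pair, by 0.54 for Ddit4 and 0.58 for Tsc22d3, both higher on replicate 2.

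**Figure D4:**
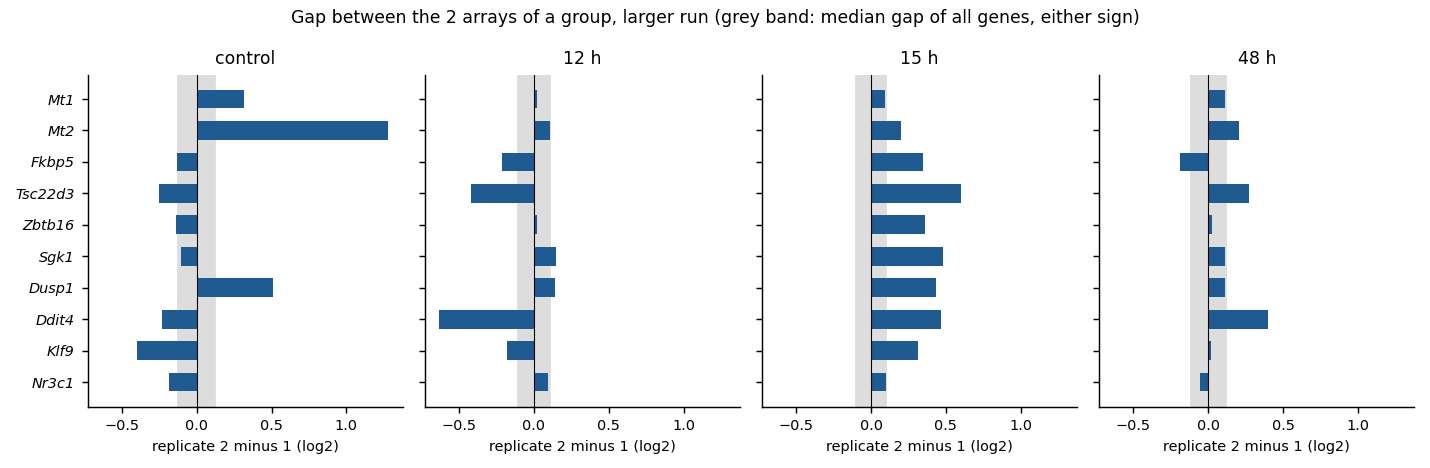
Log2 level on replicate 2 minus that on replicate 1 for the 10 genes in the 4 groups with 2 arrays in the larger run, with the median absolute gap of all genes as a grey band. All 10 bars point to replicate 2 at 15 h, and the longest bar is that of Mt2 in the controls (1.28).

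Among the 45 pairs of the 10 genes, Pearson's r over the 10 arrays of the larger run went from −0.43 for Dusp1 with Klf9 to 0.90, with a median of 0.27, and 2 pairs reached 0.8. These were Mt1 with Mt2 (r = 0.90, Spearman's rho 0.88) and Tsc22d3 with Ddit4 (r = 0.90, rho 0.95). Without the 2 arrays farthest from the median of the first gene, r was 0.55 for the metallothioneins and 0.85 for Tsc22d3 with Ddit4. For Mt1 the arrays left out include control replicate 1. Leaving out extreme arrays narrows the range, which can lower r by itself. The arrays share groups and normalization, and these correlations are descriptions. Of 6977 other genes with a range of at least log2 0.5, the 3 most like Mt1 were Hypk (r = 0.95), Pvt1 (r = 0.94) and Mrps18b (r = 0.91). Mt1 and Mt2 are similar in sequence, and signal shared between their probe sets was not tested.

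Of 24 further glucocorticoid-induced genes 23 were measured, and 1 rose at 4 h (1.99% of all genes passed), 1 at 48 h (0.376%) and 1 between 48 h and the middle times (0.828%), each time Tat, a liver enzyme of tyrosine breakdown that also stands in the liver list. Tat was higher by 0.56 ± 0.09 at 4 h (adjusted p = 0.00638) and by 0.54 ± 0.07 at 48 h (adjusted p = 0.00851), the times of the intestine and liver markers described above. The other 22 did not pass in these comparisons, and 0 of 23 passed at 9 h, 12 h or 15 h, where 2, 3 and 1 had an unadjusted p under 0.05 (6.12%, 13.7% and 12.5% of all genes). The list's median was 0.11 at 4 h, 0.02 at 9 h, −0.06 at 12 h and −0.12 at 48 h.

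Per1 differed by −0.33 ± 0.23 at 4 h, 0.40 ± 0.17 at 9 h, −0.19 ± 0.19 at 12 h, 0.30 ± 0.19 at 15 h and −0.25 ± 0.19 at 48 h, with adjusted p from 0.526 to 0.806. Among 12 measured circadian output genes 1 rose and 2 fell at 9 h, where 0.0953% of all genes passed, and 6 had an unadjusted p under 0.05 (6.12% of all genes). Noct rose by 1.17 ± 0.15, and Nr1d1 and Dbp fell by 1.11 ± 0.14 and 0.67 ± 0.10. At 12 h 0 passed, but 9 of 12 had an unadjusted p under 0.05 (13.7% of all genes), with a median of −0.31 and 3 above 0. At 15 h only Noct passed (0.97 ± 0.16, adjusted p = 0.0468). Counts at an unadjusted p under 0.05 were 3 at 4 h (15.2% of all genes), 4 at 15 h (12.5%) and 2 at 48 h (14%).

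In the metal and oxidant list, which holds the metal-sensing factor Mtf1 and the zinc exporter Slc30a1, 0 of 12 genes passed in each of the 6 comparisons. The highest count at an unadjusted p under 0.05 was 6 of 12 at 15 h, where Mt1 rose and 12.5% of all genes lay under 0.05, and the other comparisons had 1 to 5. The list's median at 15 h was 0.12, with 9 of 12 above 0. In that comparison Mtf1 differed by 0.10 ± 0.12 (adjusted p = 0.769) and Slc30a1 by −0.05 ± 0.11 (adjusted p = 0.880). At 48 h Slc30a1 differed by 0.28 ± 0.11 (unadjusted p = 0.0316, adjusted p = 0.304). Of 8 measured receptor partners, 9 inflammatory genes that glucocorticoids repress and 13 immediate early genes, 0 passed in any comparison. At an unadjusted p under 0.05 the counts were 1 to 4, 0 to 2 and 0 to 5. The highest counts were 4 of 8 receptor partners, also at 15 h (12.5% of all genes), 2 of 9 inflammatory genes at 12 h (13.7%) and 5 of 13 immediate early genes at 4 h (15.2%). Of 12 genes of hypoxia and the ATF4 response, 1 passed, Asns, the asparagine synthetase, which rose by 0.79 ± 0.12 at 48 h (adjusted p = 0.0259), where 0.376% of all genes passed.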

How the data were processed

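The authors deposited 1 table of log2 levels from Affymetrix Mouse Gene 1.0 ST arrays (1 colour), for which the submitters' processing notes name RMA; its version and the set of arrays normalized together are not given in the sources used here. Scanner files were not analysed here, so background correction was not varied. From 35557 probe sets, the 21789 with 1 gene symbol in the platform annotation gave 19938 genes, each by its probe set of highest mean. Groups follow the labelled times. 1 linear model (limma 3.58.1, R 4.3.3) had 6 groups and a fixed term for the run of title numbers, with 6 residual and 4.62 prior degrees of freedom; the 4 h array took its spread from the other groups. P-values were adjusted by Benjamini-Hochberg over 19938 genes, with a threshold of 0.05. Since separate animals are not stated, p-values reflect only the spread among arrays, which may be technical; precision is limited by how few arrays there are. The fit was tested on simulated data with normally distributed noise. That test required recovery only of differences larger than any seen in the 10 genes, so it does not cover effects of their size. The 10 genes and the gene lists were chosen with earlier results of these data known. Text names all 10 genes, up to 4 passing genes per list and comparison, Per1, Mtf1 and Slc30a1, and the 3 genes most correlated with a passing one. Alternatives were the larger run alone, a random run block, no dim genes, quantile normalization or centring within runs, robust moderation with a trend, every probe set, and each array left out. Figures used matplotlib 3.10.9 in Python 3.11.15.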

Additional observations from a re-analysis of the deposited data

How the results depend on the processing

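The number of the 10 genes past the threshold was 0 under every alternative at 4 h, 9 h, 12 h, 48 h and 48 h against the mean of 12 h and 15 h. At 15 h it was 1, and 0 in the larger run alone, with arrays centred on the median of their run (Mt1 0.61, adjusted p = 0.0629) or without the 4 arrays highest in intestine or liver markers; leaving out each array in turn gave 0 to 1. Of 1220 recomputed differences of single genes, 1163 stayed within the standard error or kept their call, and 47 moved by more than that. The other 10 (all Mt1 at 15 h) lost the call, and 0 changed sign with a call. Many of the 1163 could not move. Omitting a 4 h, 12 h, 15 h or 48 h array leaves comparisons without that time unaltered. Differences are also unaltered by other moderation or by leaving out dim genes, so these counts do not measure robustness. The number of genes past the threshold over all genes moved more. At 12 h, 15 h, 48 h and 48 h against the middle times it was 21, 51, 75 and 165, and 10, 22, 31 and 55 in the larger run alone. With a random run block it was 112, 81, 143 and 457, and 32 at 9 h against 19. Without dim genes it was 57 at 4 h against 397, and 55, 20 and 44 at 12 h, 48 h and for the late against middle times; with trend and robust moderation these 3 were 65, 134 and 278. Without those 4 arrays it was 8, 7 and 23 at 9 h, 12 h and 15 h. Leaving out each array gave 293 to 1359 at 4 h, 5 to 75 at 9 h, 6 to 414 at 12 h, 6 to 505 at 15 h, 31 to 104 at 48 h and 28 to 1265 for the last comparison. The highest count at 4 h, 12 h, 15 h and in the last comparison, which holds no control, came each time without control replicate 1. At 9 h the highest came without control replicate 3, and at 48 h without 48 h replicate 2. The cause was not tested. No paired analysis was possible because the labels give no replicate numbers that groups share.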
